A study of Mus musculus with 19 samples.

Results

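The TRIM family was followed in embryonic stem cells of the mouse, with and without a pair of RNA-binding proteins, the family member Trim71 and Lin28a. Members were the genes whose symbol is Trim, a number and at most 1 letter. The table held 56 of them among 21685 gene symbols. A member was tested where its log2 value reached 3.32, which is 10 on the linear scale, in at least 4 of the 18 libraries used. This left 41 members among 14988 genes tested. Of these 41, 38 reached that floor in all 18 libraries, while Trim40 did so in 11, Trim66 in 10 and Trim30d in 7.

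Messenger RNA was sequenced from male C57BL/6 cells kept in medium with serum and LIF, the cytokine that holds them undifferentiated, and sorted with magnetic beads for SSEA-1, a stem cell surface antigen. The first word of a genotype name gives the state of Trim71 and the second that of Lin28a. WT-WT cells were Trimfl/fl - Lin28afl/fl (4 libraries), KO-WT cells Trim-/- - Lin28afl/fl (4 of the 5 deposited), WT-KO cells Trimfl/fl - Lin28a-/- (5 libraries) and KO-KO cells Trim-/- - Lin28a-/- (5 libraries). Trim71 had been deleted in floxed cells with 500 nM 4-hydroxytamoxifen given for 2 days, followed by at least 7 days of culture. The labels do not say whether the floxed cells counted as WT also received the drug. Each Lin28a state came from 2 clones of its own, clones 1 and E3 with Lin28a intact and clones 1-4 and C1 without it, so an effect of Lin28a loss and a difference between clones cannot be told apart. Libraries are not said to come from separate cultures, so p-values measure the spread between these libraries only.

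TRIM proteins share an N-terminal module of a RING finger, 1 or more B-box zinc fingers and a coiled coil. The RING finger recruits ubiquitin-conjugating enzymes, which makes most members E3 ubiquitin ligases, and the C-terminal domain chooses the substrate or partner and divides the family into classes. NHL-domain members bind RNA or cytoskeletal cargo, PHD-bromodomain members act on chromatin, and many PRY-SPRY members act in innate immunity. In embryonic stem cells the family is known above all for Trim28, which silences endogenous retroviruses with SETDB1, and for Trim71, whose mRNA is a classic target of the microRNA let-7. Lin28a binds the let-7 precursor and blocks its maturation.

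Values in the table are log2, and every value below is on that scale unless said otherwise. Differences between harvest days had already been taken out of them, so the fit counted a term per day. KO-WT replicate 5, alone on its harvest day, matched the average of the remaining KO-WT libraries to 1.5e-08 and was left out. Depth is unknown. Lin28a itself, which checks the labels, lay between 9.74 and 10.26 in the 8 libraries with Lin28a and between 8.21 and 8.57 in the 10 without it. The libraries of day 4 stood apart: their deviations from the genotype means followed transcript GC content more closely than those of most other libraries (Spearman's rho across 14724 genes of -0.389 in WT-WT replicate 3, -0.459 in WT-KO replicate 4, 0.483 in KO-WT replicate 3 and 0.348 in KO-KO replicate 4). With day differences taken out, deviations within a day offset each other, so these correlations are not independent.

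Transcript abundance was compared between members per kilobase of transcript, as log2 of the linear value divided by length. On that scale Trim28, the corepressor that KRAB zinc finger proteins bring to DNA, was the highest at 11.84. Trim6 (8.78), a ligase that makes unanchored ubiquitin chains in interferon signalling, came next, followed by Trim25 (8.41), which ubiquitinates the viral RNA sensor RIG-I and helps Lin28a to uridylate the let-7 precursor. Trim24 (8.35), a chromatin reader and coregulator of nuclear receptors, was close behind, and the ranges of Trim25 and Trim24 over the 18 libraries overlapped. Trim71 stood in the middle of the family, at 6.56. The lowest of the members tested were Trim65 at 1.64, Trim30d at 1.55 and Trim66 at 0.06. Of the 15 members not tested, the closest to the floor were Trim14 and Trim29, whose highest libraries read 3.02 and 3.01 (not per kilobase), against 3.46 for the highest library of Trim40, just inside it.

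**Figure D1:**
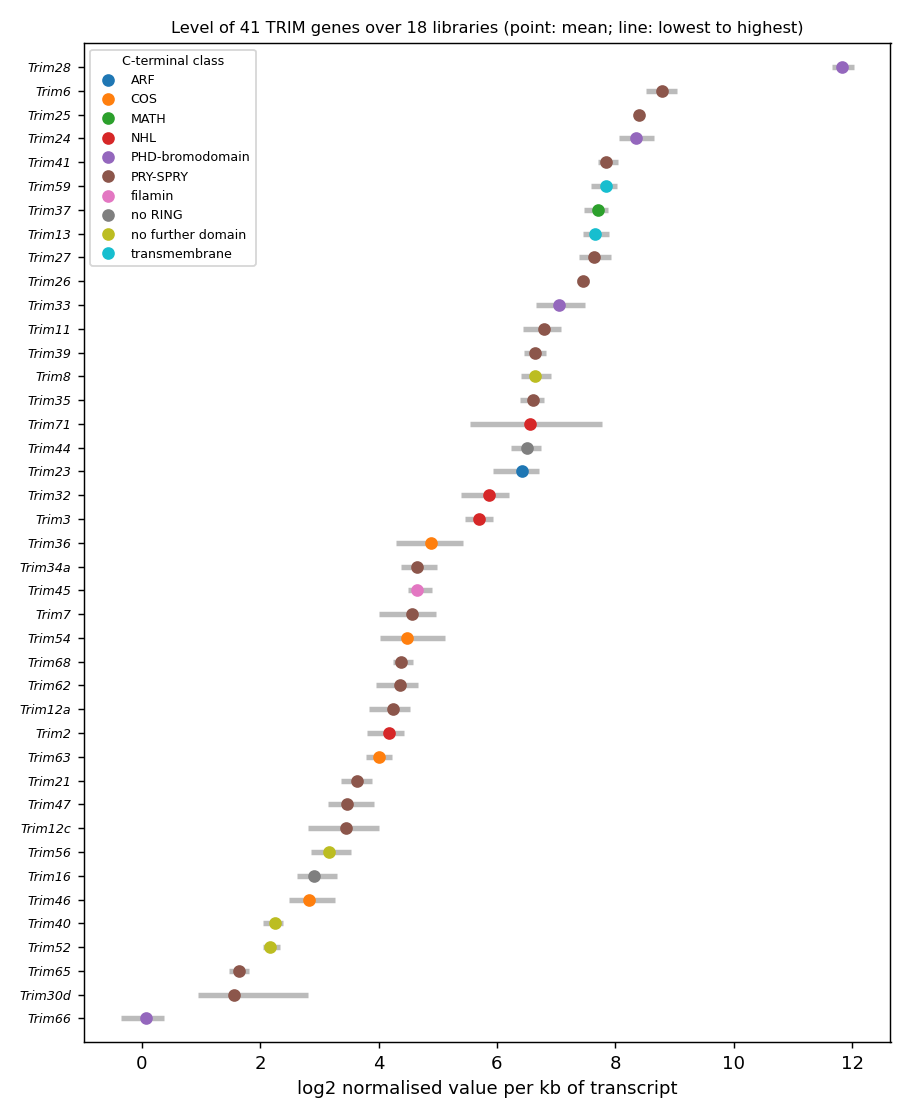
Level of the 41 TRIM genes tested, as log2 normalised value per kilobase of transcript, ordered from highest to lowest. Points are means over 18 libraries, lines run from the lowest to the highest library and colours give the C-terminal class. Trim28 stands about 3 log2 units above the next gene, and Trim71 spans the widest range.

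Loss of Trim71 changed few members. A gene is called where limma's Benjamini-Hochberg adjusted p over all genes tested is under 0.05. With Lin28a intact, 3 of 41 members were called and all 3 were lower, namely Trim71, Trim54 and Trim13, where 11.2% of all genes tested were called (4.74% higher and 6.43% lower). In Lin28a-null cells 7 of 41 were called, 2 higher and 5 lower, against 8.38% of all genes (4.26% higher and 4.12% lower). The 3 members called with Lin28a intact were called again in Lin28a-null cells, which is 3 of 3 and 3 of 7. All these counts include Trim71, the deleted gene, whose fall was set by the design. Apart from it, only Trim54 and Trim13 recurred. The comparisons with Lin28a intact and in Lin28a-null cells share no library, but they share an estimate of spread. Day differences had also been taken out over all genotypes together, so their values are not independent. The share of all genes called in both was not computed. The median log2 difference of the 41 members was -0.04 with Lin28a intact and -0.02 in Lin28a-null cells, beside -0.005 and -0.009 over all genes. Fitted alone, with fewer libraries, the clone pair 1 and 1-4 gave 4 and 3 called members and the pair E3 and C1 gave 1 and 2. Trim71 itself was the only member whose calls held within each pair alone, in either Lin28a state.

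More members differed after Lin28a loss, as did more genes at large. With Trim71 intact 13 of 41 members were called, 4 higher and 9 lower, where 42.4% of all genes were called. In Trim71-null cells 19 of 41 were called, 7 higher and 12 lower, against 42.8% of all genes. The first share is below the background and the second near it. These counts include Trim66, which reached the floor only in libraries without Lin28a, and Trim30d, which reached it only in libraries with Lin28a, so both had to differ between Lin28a states to be tested. Over the 38 members at the floor in every library 11 (3 higher, 8 lower) and 17 (6 higher, 11 lower) were called, or 28.9% and 44.7%, where the genes at the floor in every library gave 42.3% and 42.4%. The 13 members called with Trim71 intact, Trim30d and Trim66 included, were called again in the same direction in Trim71-null cells. That is 13 of 13 and 13 of 19. Trim30d and Trim66 entered the test by differing between Lin28a states, so their recurrence is no support. Both comparisons set the same clones against each other and share an estimate of spread. The share of all genes called in both was not computed. The members' median difference was -0.04 in both comparisons, beside -0.008 and -0.001 over all genes. The clone pair 1 and 1-4 alone gave 13 and 6 called members, and the pair E3 and C1 alone 5 and 12. Calls that held within each pair alone were those of Trim6, Trim46 and Trim62 with Trim71 intact. In Trim71-null cells they were those of Trim6, Trim8, Trim27 and Trim46. With Trim71 intact Trim30d also kept its call in each pair, but it entered the test only through libraries with Lin28a.

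**Figure D2:**
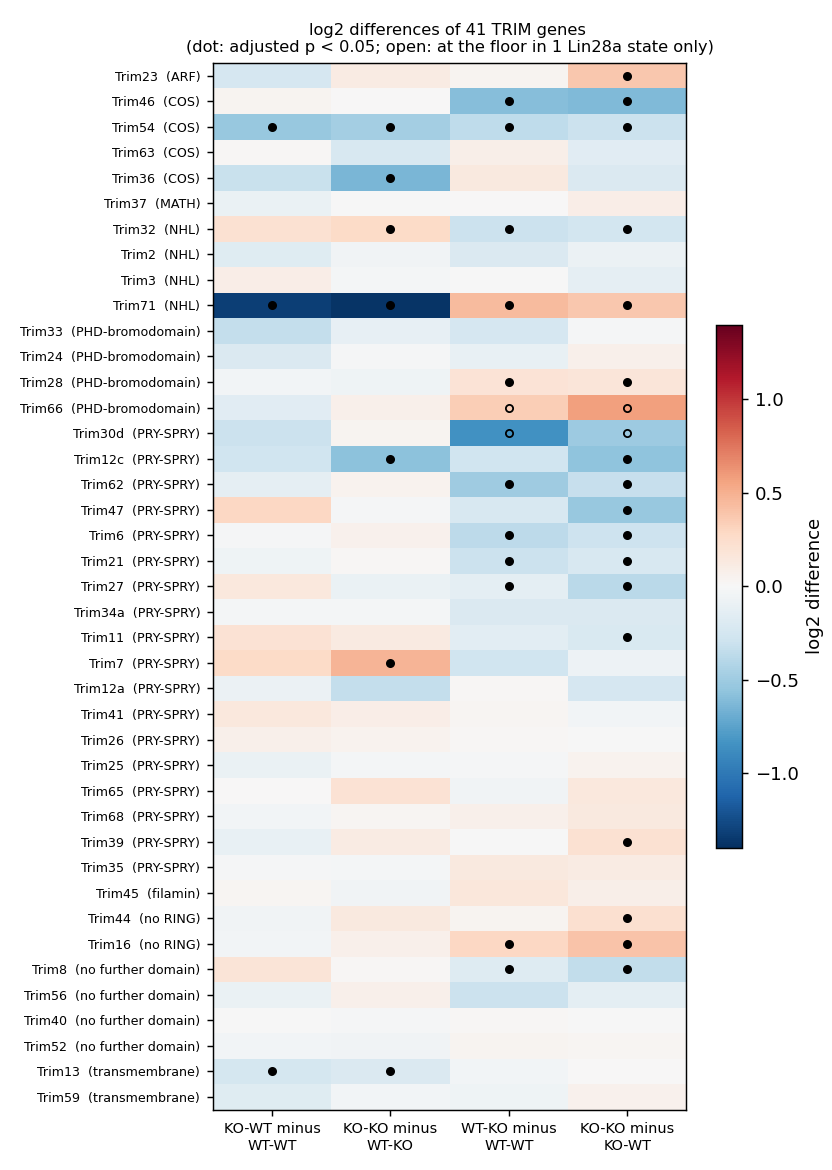
Log2 differences of the 41 TRIM genes tested in 4 comparisons, with genes in rows grouped by C-terminal class and comparisons in columns. Colour gives the difference (red higher, blue lower after the loss) and a dot marks an adjusted p under 0.05, open for Trim30d and Trim66, which reached the floor in libraries of 1 Lin28a state only. Only Trim54 and Trim71 carry a dot in all 4 columns, and Trim71 has the darkest cells.

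Cells of the Lin28a states also differed in markers of other cell types, which bears on every Lin28a result below. Summed linear values of the trophectoderm list were 3652 to 5192 in WT-WT, 3713 to 4790 in KO-WT, 282 to 356 in WT-KO and 308 to 461 in KO-KO libraries, and 5 of its 6 tested markers were lower after Lin28a loss in either Trim71 state, while Cdx2, Elf5 and Tfap2a were below the floor in every library. The primitive endoderm list summed to 11173 to 12327, 11818 to 13985, 5268 to 6474 and 6004 to 7154 in the same order, with 9 of 9 tested markers lower with Trim71 intact and 7 of 9 in Trim71-null cells, and Foxa2 below the floor. The fibroblast list summed to 4682 to 5388, 4419 to 5031, 6071 to 6846 and 6023 to 7168, with Fn1 higher and 4 of 6 tested markers (Acta2, Col1a1, Col1a2 and Tagln) lower in either Trim71 state, and Pdgfrb below the floor. Embryonic stem cell markers summed to 34422 to 36626, 37081 to 39733, 44344 to 50545 and 47213 to 50687, with 8 of 9 tested markers higher with Trim71 intact, and 5 higher and 1 lower in Trim71-null cells. In these bulk libraries fewer cells of a type and less RNA per cell cannot be told apart, and the part of these markers in the results for TRIM genes was not tested.

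Trim71, the targeted NHL-domain member, was lower in every library labelled as lacking it. It read 10.33, 10.26, 10.04 and 10.19 in WT-WT libraries and 8.77, 8.96, 9.06 and 8.79 in KO-WT libraries. In Lin28a-null cells it read 10.53, 10.996, 10.57, 10.67 and 10.49 with Trim71 intact and 9.28, 9.05, 9.24, 9.25 and 9.55 without. In both Lin28a states every knockout library lay below every library with the gene and a signal remained. Which exons were deleted is not given in the sources used here. The difference was -1.31 ± 0.12 (SE; adjusted p = 2.39e-05) with Lin28a intact, a ratio of 0.403, and -1.38 ± 0.103 (adjusted p = 2.36e-06) in Lin28a-null cells, a ratio of 0.385.

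Trim71 was higher in the cells without Lin28a, which came from clones of their own. With Trim71 intact the difference was 0.45 ± 0.111 (adjusted p = 0.00431), and the WT-KO libraries all lay above the WT-WT libraries. In Trim71-null cells it was 0.38 ± 0.111 (adjusted p = 0.0111), with KO-KO replicate 2 at 9.05 inside the KO-WT range. That second rise lost its call without KO-WT replicate 1 (adjusted p = 0.0549), in the clone pair E3 and C1 (0.25, adjusted p = 0.141) and after correction for GC content and length (0.24, adjusted p = 0.0923). In clones 1 and 1-4 alone the rise with Trim71 intact was 0.25 (adjusted p = 0.0508).

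The other NHL-domain members moved less. Trim32, a ligase of muscle and of neural progenitors, read 7.53, 7.58, 7.61 and 7.61 in WT-WT and 7.27, 7.47, 7.36, 7.06 and 7.23 in WT-KO libraries, so every Lin28a-null library was lower (-0.30 ± 0.0771, adjusted p = 0.0048). Without Trim71 it read 7.69, 7.79, 7.89 and 7.82 in KO-WT and 7.61, 7.46, 7.47, 7.64 and 7.54 in KO-KO libraries, again with no overlap (-0.25 ± 0.0771, adjusted p = 0.0147). Within the clone pair E3 and C1 the first fall was not called (adjusted p = 0.139). The second was not called in either clone pair alone (adjusted p = 0.11 and 0.117), nor without KO-KO replicate 2 or KO-WT replicate 3 (adjusted p up to 0.0575). Trim71 loss moved it the other way in Lin28a-null cells, by 0.26 ± 0.0713 (adjusted p = 0.0308), with 4 of 5 same-day pairs higher and KO-KO replicates 2 and 3 inside the WT-KO range. This rise was not called without the libraries of day 4 (adjusted p = 0.0995) or when any of 6 libraries (replicates 1, 4 and 5 of WT-KO and of KO-KO) was left out, with adjusted p up to 0.102; with Lin28a intact the difference was 0.21 (adjusted p = 0.103). In KO-KO against WT-WT cells, where both genes are lost, Trim32 differed by -0.04 (adjusted p = 0.701).

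Trim2 and Trim3, brain-enriched ligases of the same class, were called in no comparison. Trim2 had group means of 7.23 ± 0.039 (SD, n = 4), 7.06 ± 0.18 (n = 4), 7.03 ± 0.23 (n = 5) and 6.99 ± 0.086 (n = 5) in WT-WT, KO-WT, WT-KO and KO-KO cells. Trim3 had means of 7.28 ± 0.033, 7.37 ± 0.05, 7.27 ± 0.15 and 7.24 ± 0.12 in the same order. Every KO-KO library of Trim2 lay below every WT-WT library (highest 7.09 against lowest 7.19). Every KO-WT library of Trim3 lay above every WT-WT library (lowest 7.338 against highest 7.320) and every KO-KO library (highest 7.335). All remaining pairs of groups overlapped in both genes, and the WT-WT libraries were the least spread. Over all genes, groups did not overlap for 28.2% after Trim71 loss with Lin28a intact, 40.7% after Lin28a loss in Trim71-null cells and 44.5% for the double loss.

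**Figure D3:**
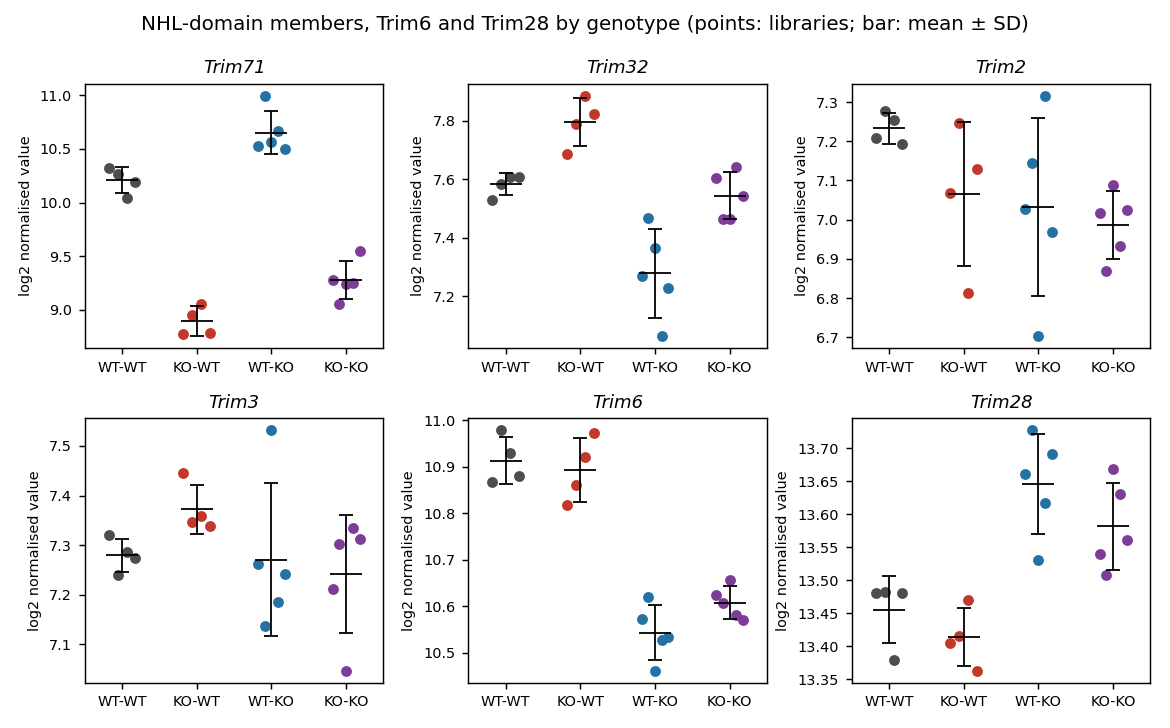
Log2 normalised values of the NHL-domain members Trim71, Trim32, Trim2 and Trim3, and of Trim6 and Trim28, by genotype. Points are libraries, and bars are mean ± SD over 4 (WT-WT, KO-WT) or 5 (WT-KO, KO-KO) libraries; each panel has its own axis. Trim71 separates by its own genotype and shifts up in Lin28a-null cells, while Trim6 separates by Lin28a state only.

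Trim6 and Trim71 were the members with the most sites for let-7, and the sequences are shown because Lin28a acts on that microRNA. Written 5′ to 3′, with the seed (bases 2 to 8) in capitals, the mature microRNA from RefSeq (GRCm38.p6) is given first. Below it are the sites in the 3′ UTRs of the longest coding GENCODE M21 transcripts, with the 7 bases complementary to the seed, CTACCTC, in capitals.
mmu-let-7a-5p: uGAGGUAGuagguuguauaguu
Trim6, sites 1, 3 and 4: atactgattatagatCTACCTCa
Trim6, sites 2 and 5: atactgattatagctCTACCTCa
Trim6, site 6: ctctttataaacaaaCTACCTCt
Trim71, site 1: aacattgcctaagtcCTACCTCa
Trim71, site 2: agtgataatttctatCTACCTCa
Trim71, site 3: tttagtatggattttCTACCTCa
Trim71, site 4: ttggcaaaaagttgtCTACCTCa
The first 5 matches of Trim6 began 541, 586, 631, 676 and 721 bases into its 2220-base 3′ UTR, 45 bases apart and in nearly the same letters, and the sixth began at base 1023. The matches of Trim71 began at bases 166, 262, 3591 and 3617 of 5512. Trim16, Trim25, Trim41 and Trim65 held 1 match each, so 6 of 41 members (14.6%) had at least 1, beside 1316 of 12514 tested genes with a 3′ UTR (10.5%). At least 4 matches were found in 11 of those genes (0.0879%). A match is a description of the letters and not a shown site of action, and let-7 itself was not measured here.

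Trim6 and Trim71 moved in opposite directions after Lin28a loss. Trim6 read 10.87, 10.98, 10.93 and 10.88 in WT-WT and 10.57, 10.62, 10.46, 10.53 and 10.53 in WT-KO libraries. Without Trim71 it read 10.82, 10.86, 10.92 and 10.97 in KO-WT and 10.62, 10.61, 10.66, 10.58 and 10.57 in KO-KO libraries. All 10 Lin28a-null libraries lay below all 8 libraries with Lin28a. The difference was -0.37 ± 0.0457 (adjusted p = 1.00e-05) with Trim71 intact and -0.28 ± 0.0457 (adjusted p = 0.000126) in Trim71-null cells, and it was called under every alternative run. After Trim71 loss Trim6 differed by -0.02 ± 0.0494 (adjusted p = 0.82) with Lin28a intact and by 0.07 ± 0.0423 (adjusted p = 0.389) in Lin28a-null cells. Of the members with 1 match, Trim16 rose after Lin28a loss, and Trim25, Trim41 and Trim65 were not called.

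After Trim71 itself, the member with the largest fall on Trim71 loss in cells with Lin28a was Trim54, a COS-domain ligase of striated muscle that binds microtubules. It read 5.46, 5.38, 5.29 and 5.65 in WT-WT and 4.97, 4.97, 5.03 and 4.69 in KO-WT libraries, with no overlap (-0.53 ± 0.0967, adjusted p = 0.00441). In Lin28a-null cells it read 5.12, 5.03, 5.11, 5.04 and 5.17 with Trim71 and 4.57, 4.62, 4.61, 4.70 and 4.55 without, again with no overlap (-0.48 ± 0.0828, adjusted p = 0.00207). Trim54 was lower in the cells without Lin28a too. The differences were -0.35 ± 0.0895 with Trim71 intact (adjusted p = 0.00506) and -0.30 ± 0.0895 in Trim71-null cells (adjusted p = 0.0124, with KO-WT replicate 4 at 4.69 inside the KO-KO range). That library aside, the KO-KO libraries were the lowest of all, and the double loss gave -0.83 ± 0.0895 (adjusted p = 2.17e-06), a ratio of 0.563. Fitted without the other genotypes, the fall with Lin28a intact had an adjusted p of 0.14, and the clone pair E3 and C1 gave -0.33 (adjusted p = 0.172). In that pair Trim71 loss in Lin28a-null cells gave -0.41 (adjusted p = 0.0699). Lin28a loss with Trim71 intact gave -0.26 there (adjusted p = 0.131). The fall in Trim71-null cells was not called without KO-WT replicate 3 (adjusted p = 0.0549) or in clones 1 and 1-4 alone (-0.09, adjusted p = 0.716). Correction for GC content and length also ended that call (-0.20, adjusted p = 0.0573). Trim54 overlaps the gene Gm15469, and whether counting used strand is not given in the sources used here.

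Trim13, a ligase anchored in the endoplasmic reticulum membrane, fell slightly with Trim71 in both Lin28a states. It read 8.50, 8.55, 8.41 and 8.49 in WT-WT and 8.36, 8.24, 8.15 and 8.24 in KO-WT libraries. In Lin28a-null cells it read 8.47, 8.39, 8.39, 8.59 and 8.40 with Trim71 and 8.22, 8.19, 8.25, 8.28 and 8.31 without. The groups did not overlap in either state (-0.24 ± 0.0632, adjusted p = 0.0257, and -0.20 ± 0.0541, adjusted p = 0.0314), and Lin28a loss left differences of -0.04 and 0.00 that were not called. Both calls depended on single libraries. The first lost its call without any of WT-WT replicates 2 and 4 and KO-WT replicates 2, 3 and 4 (adjusted p up to 0.105). The second lost it without any of WT-KO replicates 1 and 4 and KO-KO replicates 1, 2 and 3 (adjusted p up to 0.106). Correction for GC content and length brought the first to -0.15 (adjusted p = 0.107), where the log2 differences of all genes in that comparison had a Spearman correlation of 0.514 with GC content. Trim13 overlaps the noncoding gene Dleu2.

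Trim36, Trim12c and Trim7 were called for Trim71 loss in Lin28a-null cells and not with Lin28a intact, but no difference between those states passed its test. Trim36, a COS-domain ligase, read 7.28, 7.62, 7.37, 7.57 and 7.08 in WT-KO and 6.95, 6.49, 6.66, 6.66 and 6.94 in KO-KO libraries, which did not overlap (-0.64 ± 0.118, adjusted p = 0.00309). With Lin28a intact its difference was -0.31 ± 0.138 (adjusted p = 0.151), and the interaction was -0.34 ± 0.181 (adjusted p = 0.388). In clones 1 and 1-4 alone the fall was -0.23 (adjusted p = 0.232).

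Trim12c, a mouse counterpart of the retroviral restriction factor TRIM5, was lowest where both genes were lost. It read 5.91, 5.73, 5.45 and 5.84 in WT-WT, 5.59, 5.34, 5.70 and 5.16 in KO-WT, 5.45, 5.29, 5.47, 5.55 and 5.51 in WT-KO and 4.71, 4.90, 4.98, 4.82 and 5.01 in KO-KO libraries. Every KO-KO library lay below all others. Trim71 loss gave -0.57 ± 0.113 (adjusted p = 0.00534) in Lin28a-null cells and -0.28 ± 0.132 (adjusted p = 0.165) with Lin28a intact, and the double loss gave -0.85 ± 0.122 (adjusted p = 4.17e-05). In clones E3 and C1 alone the first of these was -0.54 (adjusted p = 0.0816). Lin28a loss gave -0.56 ± 0.122 (adjusted p = 0.00153) in Trim71-null cells, though -0.25 (adjusted p = 0.333) in clones 1 and 1-4 alone. Its neighbour Trim12a was called only for the double loss (-0.32 ± 0.118, adjusted p = 0.0365), a call that ended without any of WT-WT replicates 1 and 4 and KO-KO replicates 1, 2 and 3 (adjusted p up to 0.145). The genes are close paralogues, so reads may be split between them.

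Trim7, a PRY-SPRY ligase that binds glycogenin, was the only member besides Trim32 called higher after Trim71 loss, in Lin28a-null cells. It read 5.51, 5.48, 5.66, 5.24 and 5.599 in WT-KO and 5.97, 6.21, 5.84, 5.98 and 5.85 in KO-KO libraries, with no overlap (0.47 ± 0.107, adjusted p = 0.0126). With Lin28a intact it differed by 0.26 ± 0.124 (adjusted p = 0.172). The call ended without KO-KO replicate 2 (adjusted p = 0.0527) and in either pair of clones alone (adjusted p = 0.115 and 0.148). Trim7 overlaps Gm12184.

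**Figure D4:**
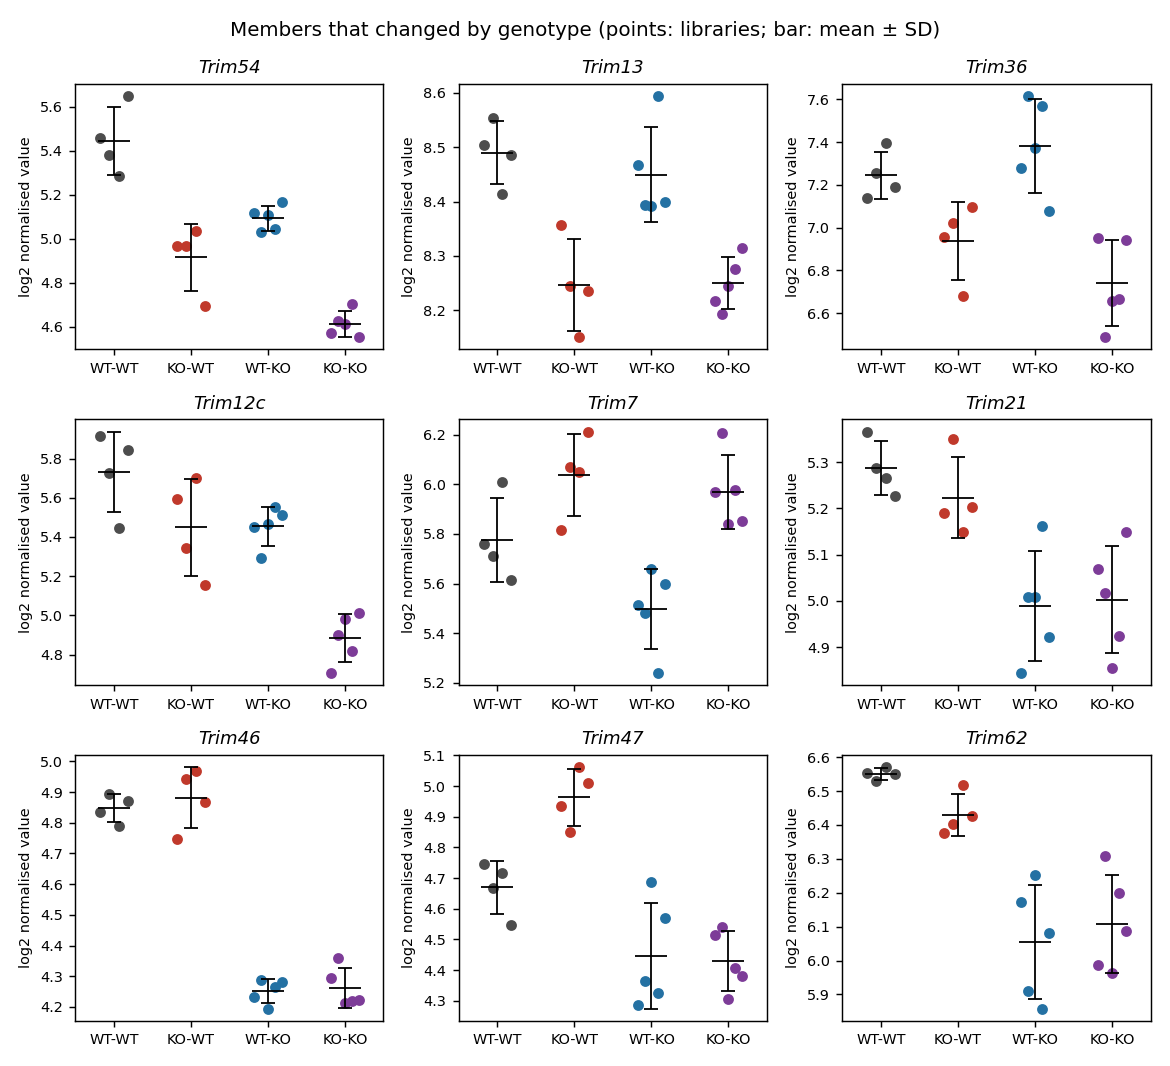
Log2 normalised values of 9 TRIM genes with called differences, by genotype, each panel with its own axis. Points are libraries, and bars are mean ± SD over 4 (WT-WT, KO-WT) or 5 (WT-KO, KO-KO) libraries. The group means of Trim54 step down with each loss, Trim12c is lowest in KO-KO, and Trim46 separates by Lin28a state without overlap.

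Each member was given 1 class only, so other classes may hold members that also carry a PRY-SPRY domain. Among the 18 tested members classed as PRY-SPRY, 5 were called lower and none higher after Lin28a loss with Trim71 intact. In Trim71-null cells 8 were called lower and 1 higher. Without Trim30d these are 4 lower, and 7 lower and 1 higher, of 17. The background is 22% of all genes called lower and 20.3% called higher with Trim71 intact, and 22% and 20.8% in Trim71-null cells. Besides Trim6 and Trim30d, the members lower in both Trim71 states were Trim62, Trim21 and Trim27. Trim47, Trim11 and Trim12c were lower in Trim71-null cells only by their calls, with -0.22 (adjusted p = 0.0711), -0.15 (adjusted p = 0.109) and -0.28 (adjusted p = 0.078) with Trim71 intact.

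Trim30d, an interferon-inducible paralogue of Trim30a, reached the floor in 7 libraries, all with Lin28a. Its values between Lin28a states are therefore given as a description, with no test. It read 3.43, 3.59, 3.65 and 4.52 in WT-WT and 3.05, 2.96, 3.06, 2.98 and 2.66 in WT-KO libraries, with WT-WT replicate 4 far above the rest. The difference was -0.85, and -0.52 without that library. In Trim71-null cells it read 3.70, 3.58, 3.56 and 3.14 with Lin28a and 3.24, 2.76, 2.99, 3.03 and 2.89 without. These groups overlapped (-0.51), and in clones 1 and 1-4 alone the difference was -0.01. Trim30a itself was below the floor in every library, with a highest value of 2.82.

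Trim62, a ligase linked to epithelial polarity, read 6.55, 6.53, 6.57 and 6.55 in WT-WT and 6.17, 5.91, 6.25, 5.86 and 6.08 in WT-KO libraries (-0.50 ± 0.0936, adjusted p = 0.000519). In Trim71-null cells it read 6.38, 6.401, 6.52 and 6.43 with Lin28a and 5.99, 6.31, 5.96, 6.20 and 6.09 without (-0.32 ± 0.0936, adjusted p = 0.011). The groups did not overlap in either state, and the libraries without Lin28a were the more spread. Within a single pair of clones the second fall was not called (adjusted p = 0.146 and 0.0753).

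Trim21, the cytosolic antibody receptor that sends antibody-coated virus to the proteasome, read 5.37, 5.29, 5.27 and 5.23 in WT-WT and 4.84, 5.01, 5.01, 5.16 and 4.92 in WT-KO libraries (-0.30 ± 0.0857, adjusted p = 0.0106). Every WT-KO library was lower, and the call ended without WT-KO replicate 1 (adjusted p = 0.0508). In Trim71-null cells the difference was -0.22 ± 0.0857 (adjusted p = 0.0481) with overlapping groups, and this call ended when any of 13 of the 18 libraries was left out (all but WT-KO replicates 1 and 4, KO-KO replicates 1 and 5 and KO-WT replicate 3; adjusted p up to 0.188). Within the clone pair 1 and 1-4 it was -0.09 (adjusted p = 0.729). Trim27, a ligase found as a fusion partner of RET, read 9.87, 9.85, 9.74 and 9.80 in WT-WT and 9.62, 9.70, 9.68, 9.72 and 9.68 in WT-KO libraries (-0.14 ± 0.0513, adjusted p = 0.0395). Without Trim71 it read 10.03, 9.997, 9.90 and 9.92 with Lin28a and 9.59, 9.50, 9.52, 9.69 and 9.64 without (-0.37 ± 0.0513, adjusted p = 2.95e-05). Neither pair of groups overlapped. The smaller fall was lost without any of 6 libraries (WT-WT replicates 1, 2 and 4 and WT-KO replicates 1, 3 and 5; adjusted p up to 0.146), while the larger was called under every alternative run.

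Trim47, a PRY-SPRY ligase, read 4.93, 4.85, 5.06 and 5.01 in KO-WT and 4.51, 4.54, 4.31, 4.41 and 4.38 in KO-KO libraries, with no overlap (-0.53 ± 0.0955, adjusted p = 0.000331; adjusted p = 0.0716 in clones 1 and 1-4 alone). Trim11 fell by 0.22 ± 0.0706 (adjusted p = 0.0211) and Trim39 rose by 0.22 ± 0.0641 (adjusted p = 0.0123) in the same comparison. Trim11 lost its call without any of KO-KO replicates 3 and 5 and KO-WT replicates 3 and 4 (adjusted p up to 0.0805), and Trim39 without KO-WT replicate 2 (adjusted p = 0.0544). In clones 1 and 1-4 alone the rise of Trim39 was 0.08 (adjusted p = 0.561), and Trim11 was called in neither clone pair alone (adjusted p = 0.185 and 0.0623).

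Several of these PRY-SPRY genes are known to be induced by interferon, and their promoters were searched for the core letters of the interferon-stimulated response element, GAAANNGAAA, on both strands (TTTCNNTTTC on the other). RefSeq promoter windows (GRCm38.p6) ran from 250 bases before to 50 bases after a gene's start and were found for 33 of the 41 members. A match was present in 7 of 33 (21.2%), namely Trim12a, Trim12c, Trim2, Trim21, Trim26, Trim30d and Trim34a, where 349 of 10497 tested genes (3.32%) and 1131 of all 32851 windows (3.44%) held one. The windows of Trim12c and Trim21, which fell after Lin28a loss in Trim71-null cells, and of Trim30d are printed 5′ to 3′ on the gene's strand, the minus strand in each, with the match in capitals; in Trim21 a pair of matches overlap.
Trim30d, chr7:104507800-104508099: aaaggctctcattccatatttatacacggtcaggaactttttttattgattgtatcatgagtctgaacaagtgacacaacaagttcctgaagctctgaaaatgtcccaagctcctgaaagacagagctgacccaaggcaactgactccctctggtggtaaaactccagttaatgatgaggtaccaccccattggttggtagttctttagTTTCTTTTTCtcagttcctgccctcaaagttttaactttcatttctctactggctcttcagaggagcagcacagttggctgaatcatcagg
Trim12c, chr7:104353300-104353599: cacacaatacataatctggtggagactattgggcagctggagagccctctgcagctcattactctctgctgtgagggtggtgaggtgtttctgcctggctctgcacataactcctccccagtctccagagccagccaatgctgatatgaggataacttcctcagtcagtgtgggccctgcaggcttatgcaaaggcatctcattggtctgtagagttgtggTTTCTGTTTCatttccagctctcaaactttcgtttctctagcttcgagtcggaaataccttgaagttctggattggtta
Trim21, chr7:102565433-102565732: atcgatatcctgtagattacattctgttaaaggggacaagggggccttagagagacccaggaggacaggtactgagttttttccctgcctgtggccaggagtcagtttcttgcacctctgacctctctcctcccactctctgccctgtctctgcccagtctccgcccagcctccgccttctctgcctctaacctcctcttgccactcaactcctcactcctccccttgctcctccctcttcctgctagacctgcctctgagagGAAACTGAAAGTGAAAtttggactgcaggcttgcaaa
Of the 7 members with a match, Trim21 was called lower after Lin28a loss with Trim71 intact, and Trim21 and Trim12c in Trim71-null cells. Trim30d was lower in both comparisons but is not counted, as it was tested only through its libraries with Lin28a, while Trim2, Trim26 and Trim34a were called in no comparison. A match says only that these letters are in the window.

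Interferon and RIG-I pathway genes outside the family moved in both directions. Of the 28 listed, 18 were tested, and after Lin28a loss 6 were lower and 2 higher with Trim71 intact, and 7 lower and 3 higher in Trim71-null cells. These are 8 and 10 of 18 called, beside 42.4% and 42.8% of all genes. Ddx58, which encodes RIG-I, differed by -0.33 ± 0.111 (adjusted p = 0.0233) and -0.40 ± 0.111 (adjusted p = 0.0083). Ifitm3, which blocks viral entry, rose by 0.59 ± 0.0738 (adjusted p = 1.14e-05) and 0.42 ± 0.0738 (adjusted p = 0.000287). The list's median difference was -0.11 with Trim71 intact and 0.001 in Trim71-null cells. After Trim71 loss 1 was higher and 1 lower with Lin28a intact, and 1 higher and 2 lower without, beside 11.2% and 8.38% of all genes called. Trim25, the ligase of RIG-I, was called in no comparison and was the steadiest of the highly expressed members, with group means of 10.93 ± 0.025 (SD, n = 4), 10.83 ± 0.022 (n = 4), 10.91 ± 0.008 (n = 5) and 10.88 ± 0.022 (n = 5) in WT-WT, KO-WT, WT-KO and KO-KO cells.

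Of the 4 COS-domain members, Trim46 showed the clearest separation by Lin28a state. Trim46 organises parallel microtubule bundles at the start of the axon. It read 4.84, 4.89, 4.79 and 4.87 in WT-WT and 4.75, 4.94, 4.97 and 4.87 in KO-WT libraries, against 4.23, 4.29, 4.19, 4.27 and 4.28 in WT-KO and 4.29, 4.36, 4.21, 4.22 and 4.22 in KO-KO libraries. All 10 libraries without Lin28a lay below all 8 with it. The differences were -0.60 ± 0.0702 (adjusted p = 6.20e-06) with Trim71 intact and -0.62 ± 0.0702 (adjusted p = 4.01e-06) in Trim71-null cells, and both were called under every alternative in which the gene was tested. Trim71 loss left Trim46 uncalled in either state, as it did Trim63, a muscle ligase that was called in no comparison. Trim46 overlaps Krtcap2.

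Of the 4 chromatin-acting PHD-bromodomain members, Trim28 rose after Lin28a loss. Trim28 read 13.48, 13.48, 13.38 and 13.48 in WT-WT and 13.66, 13.73, 13.53, 13.62 and 13.69 in WT-KO libraries (0.19 ± 0.0512, adjusted p = 0.00704). Without Trim71 it read 13.41, 13.42, 13.47 and 13.36 with Lin28a and 13.54, 13.51, 13.67, 13.63 and 13.56 without (0.17 ± 0.0512, adjusted p = 0.0144). The groups did not overlap in either state, and the rise was small, a ratio of 1.14 and of 1.12. The first was 0.12 (adjusted p = 0.0556) after correction for GC content and length, and the second lost its call without KO-KO replicate 3 or KO-WT replicate 4 (adjusted p up to 0.0574).

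Trim66, a testis-enriched relative of Trim28, reached the floor in the 10 Lin28a-null libraries and in no other, so its values between Lin28a states are likewise a description, with no test. It read 3.04, 3.04, 3.24 and 3.07 in WT-WT and 3.52, 3.44, 3.56, 3.34 and 3.34 in WT-KO libraries, a difference of 0.34. In Trim71-null cells it read 2.87, 2.85, 3.01 and 3.03 with Lin28a and 3.498, 3.59, 3.54, 3.40 and 3.55 without, a difference of 0.57. The Lin28a-null libraries were the higher ones in both states, and all values lay near the floor. With a pseudocount of 10 added on the linear scale the differences were 0.17 and 0.28.

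Trim33, which acts in SMAD signalling, was called only for the double loss (-0.35 ± 0.108, adjusted p = 0.0155). It read 10.36, 10.39, 10.64 and 10.34 in WT-WT and 10.21, 10.10, 10.21, 9.81 and 10.11 in KO-KO libraries, with the highest and the lowest both from day 4. Without the libraries of that day the difference was -0.20 (adjusted p = 0.00559), and without WT-WT replicate 3 or KO-KO replicate 4 alone it was not called (adjusted p up to 0.0785). Trim24 was called in no comparison, with group means between 10.27 and 10.47.

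Partners of Trim28 in silencing were described from a list of 12, of which 11 were tested. After Lin28a loss 3 were higher and 4 lower with Trim71 intact, and 5 higher and none lower in Trim71-null cells, so 7 and 5 of 11 were called beside 42.4% and 42.8% of all genes. Atf7ip, which stabilises the histone methyltransferase SETDB1, rose by 0.28 ± 0.041 (adjusted p = 5.63e-05) and 0.35 ± 0.041 (adjusted p = 6.24e-06). Setdb1 differed by 0.02 (adjusted p = 0.709) with Trim71 intact and rose by 0.11 (adjusted p = 0.0225) in Trim71-null cells. After Trim71 loss 2 of 11 partners were lower with Lin28a intact and 1 was higher in Lin28a-null cells, beside 11.2% and 8.38% of all genes called.

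Members of the remaining classes moved modestly. Trim16, which lacks a RING finger and takes part in the autophagy of damaged lysosomes, rose after Lin28a loss by 0.29 ± 0.0938 (adjusted p = 0.0216) with Trim71 intact and by 0.39 ± 0.0938 (adjusted p = 0.00308) without, and the groups did not overlap. The first rise was lost without any of WT-WT replicates 1 and 2 and WT-KO replicates 1 and 5 (adjusted p up to 0.0915). Trim8, a regulator of cytokine signalling, fell by 0.18 ± 0.0594 (adjusted p = 0.0243) with Trim71 intact and fell by 0.35 ± 0.0594 (adjusted p = 0.000228). The first fall had overlapping groups and was lost without any of WT-WT replicates 1, 2 and 4 and WT-KO replicates 1, 3 and 5 (adjusted p up to 0.0985). Trim23, whose C terminus is an ADP-ribosylation factor domain, read 8.30, 8.40, 8.02 and 8.42 in KO-WT and 8.68, 8.68, 8.80, 8.57 and 8.59 in KO-KO libraries, with no overlap and with KO-WT replicate 3, of day 4, the lowest (0.38 ± 0.0923, adjusted p = 0.00348; 0.19, adjusted p = 0.124, in clones 1 and 1-4 alone). Trim44, also without a RING finger, rose by 0.22 ± 0.0782 (adjusted p = 0.0287) in that comparison with overlapping groups. That call ended without any of KO-KO replicates 2 and 3 and KO-WT replicates 1 and 2 (adjusted p up to 0.17). It also ended within the pair E3 and C1 (adjusted p = 0.0683), within the pair 1 and 1-4, where the difference was 0.06 (adjusted p = 0.632), and after correction for GC content and length (0.16, adjusted p = 0.0743).

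Cells without either gene were compared with cells that had both, a comparison that shares its libraries with those above. Of the 41 members 16 were called, 2 higher and 14 lower, where 45.6% of all genes were called, 21% higher and 24.6% lower. Counts for this comparison include Trim71, the deleted gene, whose fall was set by the design. The largest falls were those of Trim71 (-0.93 ± 0.111, adjusted p = 6.18e-06), Trim12c and Trim54, and Trim16 rose (0.35 ± 0.0938, adjusted p = 0.00613). Trim30d (-0.81, and -0.48 without WT-WT replicate 4) and Trim66 (0.42) are counted here too, but entered the test through libraries of 1 Lin28a state. Over the 38 members at the floor in every library 14 were called, 1 higher and 13 lower. The median difference of the members was -0.10, beside -0.02 over all genes. Under scaling to the 75th percentile the split was 4 higher and 12 lower.

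No member passed the test of whether Trim71 loss acted differently in the Lin28a states, where 0.02% of all genes were called. By limma's unadjusted p, 5 of 41 members (12.2%) were under 0.05, below the 15.1% of all genes tested. The smallest was that of Trim27 (-0.23 ± 0.073, adjusted p = 0.222), whose difference after Trim71 loss was positive with Lin28a and negative without. Trim23 (0.35 ± 0.131, adjusted p = 0.269), Trim39, Trim47 and Trim63 followed. In this comparison the log2 differences of all genes had a Spearman correlation of -0.513 with GC content.

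In all, 24 members, Trim71, Trim30d and Trim66 included, were called in at least 1 of the comparisons and 17 in none. The share of all genes called in at least 1 comparison was not computed, so this count has no background. Of all genes, 42.4% and 42.8% were called after Lin28a loss and 45.6% for the double loss. The 17 were Trim2, Trim3, Trim24, Trim25, Trim26, Trim34a, Trim35, Trim37, Trim40, Trim41, Trim45, Trim52, Trim56, Trim59, Trim63, Trim65 and Trim68. They included Trim37, which acts in peroxisome biogenesis and was the only member placed in the MATH class. Trim45, the only member placed in the filamin class, was among them too. A p above the threshold does not show that these genes were unchanged.

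TRIM-like genes under other symbols, and the enzymes that hand ubiquitin to TRIM ligases, were described from lists. Of 17 related genes 12 were tested, and after Lin28a loss 4 were higher and 2 lower with Trim71 intact, and 4 higher and 1 lower without, or 6 and 5 of 12 called. Pml, the organiser of nuclear bodies, rose by 0.23 ± 0.0646 (adjusted p = 0.0101) and 0.25 ± 0.0646 (adjusted p = 0.00575), and Mid1, a microtubule-bound ligase, by 0.50 ± 0.0975 (adjusted p = 0.000646) and 0.64 ± 0.0975 (adjusted p = 7.90e-05). Of 17 ubiquitin-activating and ubiquitin-conjugating enzymes 15 were tested, with 1 higher and 5 lower with Trim71 intact and 2 higher and 6 lower without, or 6 and 8 of 15 called. All genes were called at 42.4% and 42.8% in these comparisons. Uba1, the main activating enzyme, rose by 0.25 ± 0.0428 (adjusted p = 0.00021), while Ube2d2a, a conjugating enzyme used by many RING ligases, fell by 0.17 ± 0.0454 (adjusted p = 0.00773), and both were called in the same direction in Trim71-null cells. After Trim71 loss the related genes gave 1 higher and none lower with Lin28a intact and 1 higher and 1 lower without, and the ubiquitin enzymes gave 1 higher and 1 lower, and none higher and 1 lower, beside 11.2% and 8.38% of all genes called.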

How the data were processed

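Samples were mRNA libraries of mouse embryonic stem cells in 4 genotypes, grouped by the labels. The authors deposited 1 table of normalised values per gene symbol and library, read from the values as log2 and not counts; how they were normalised and how day effects were removed is not given in the sources used here, nor are genome build, annotation and strandedness. The submitters' processing notes list CASAVA 1.8, STAR and DESeq2, with no role. Depth is unknown, so no counting error is given. The members and gene lists were chosen with earlier results of these data known.

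All genes that reached 10 on the linear scale in 4 libraries or more entered 1 fit in R 4.3.3 with limma 3.58.1 (lmFit, contrasts.fit, eBayes with trend). The model held genotype and day and had 10 residual degrees of freedom. P-values were adjusted by the Benjamini-Hochberg method over 14988 genes. The scripts were tested on simulated data.

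Members called in any comparison were named, up to 8 higher and 8 lower per comparison with values, together with NHL-domain and PHD-bromodomain members and the highest and lowest members. Members with a let-7 or promoter match, those called in none and those nearest the floor were also named. Lengths and 3′ UTRs came from GENCODE M21. Alternatives were no day term, all 19 libraries, 75th percentile scaling, other filters, a pseudocount of 10, each pair of clones alone, only the genotypes compared, correction for GC content and length, each library left out and, chosen after seeing the data, no libraries of day 4. Same-day libraries pair the genotypes by the labels, and a check of that pairing by correlation is void because day differences had been removed.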

Additional observations from a re-analysis of the deposited data

Results flagged for a closer look

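In 10 of 164 combinations of gene and genotype, 1 library stood far from the others by Dixon's criterion, which chance alone meets in about 1 of 20 groups. These 10 values came from 7 libraries, and 7 of the 10 came from the 4 libraries of day 4. Trim28, Trim23, Trim33 and Trim44 stood apart in WT-WT replicate 3, where Trim28 was low at 13.38 (the others were all at 13.48) and Trim23, Trim33 and Trim44 were high at 8.74, 10.64 and 9.12. Trim24 was high at 10.52 in WT-KO replicate 4, Trim33 was low at 9.81 in KO-KO replicate 4 and Trim37 was low at 9.96 in KO-WT replicate 3. On other days Trim11 was low at 8.54 in WT-WT replicate 4, Trim30d was low at 2.66 in WT-KO replicate 5 and Trim63 was high at 5.08 in KO-WT replicate 1. No explanation was tested.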

How the results depend on the processing

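Without the replicate block by day, the called members numbered 14 after Trim71 loss with Lin28a intact (3 with the block), 10 in Lin28a-null cells (7), 20 after Lin28a loss with Trim71 intact (13), 21 in Trim71-null cells (19), 23 for the double loss (16) and 1 for the interaction (0). That fit counts degrees of freedom that the removal of day differences had used up. Clones E3 and C1 alone gave 1, 2, 5, 12 and 7 in the order above, and clones 1 and 1-4 alone gave 3 for Trim71 loss in Lin28a-null cells and 6 for Lin28a loss in Trim71-null cells, with fewer libraries in each fit. Fitting only the genotypes compared gave 1 for Trim71 loss with Lin28a intact. A floor of 50 left 29 members to test and gave 7, 12 and 9 for Lin28a loss with Trim71 intact, in Trim71-null cells and for the double loss. Leaving out 1 library at a time gave 2 to 6, 5 to 8, 10 to 16, 14 to 19, 14 to 19 and 0 calls, with 5 and 6 in the first comparison without WT-KO replicates 2 and 4. The split after Lin28a loss with Trim71 intact was 3 higher and 14 lower after GC and length correction. Without the 4 libraries of day 4, chosen after seeing the data, the counts were 4, 6, 17, 19, 18 and 0. No called value changed sign. For single members, 4290 of the values without 1 library kept their side of the threshold, 85 lost a call and 53 gained one; under the other alternatives these were 2446, 80 and 67. Among values called in neither fit, 328 of 5241 changed sign. Depth is unknown, and members near the floor are the least certain.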

Other observations

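The 11 tested genes with at least 4 let-7 seed matches in their 3′ UTR, among them Trim6 and Trim71, did not move as one after Lin28a loss. With Trim71 intact 4 were called lower (Hmga2, Trim6, Zbtb37 and Nr6a1), 2 higher (Trim71 and Mcf2l) and 5 in neither direction. In Trim71-null cells 4 were lower (Hmga2, Trim6, Nr6a1 and Hic2), 5 higher (Trim71, Mcf2l, Lin28b, Igf2bp1 and D10Wsu102e) and 2 in neither. Of all genes tested, 22% were called lower and 20.3% higher with Trim71 intact, and 22% and 20.8% in Trim71-null cells. Hmga2, an architectural chromatin protein and a classic let-7 target, had the largest differences, -1.16 (adjusted p = 7.29e-09) and -1.17 (adjusted p = 6.90e-09) by limma. Nr6a1, a nuclear receptor that represses pluripotency genes, held 8 matches and was lower after Trim71 loss as well, with differences of -0.35 (adjusted p = 0.00656) with Lin28a intact and -0.38 (adjusted p = 0.000867) in Lin28a-null cells. The set was taken from the sequences and not from the values.

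Of the TRIM genes on chromosome 7, Trim6, Trim34a, Trim12a, Trim12c and Trim30d lie in 1 cluster in RefSeq's order, next to Trim5 and Trim30a. Of these tested members Trim34a was called in no comparison. Trim12a was called only for the double loss, and leaving out single libraries ended that call. Trim30d entered the test only through its libraries with Lin28a. The share of all genes called in at least 1 comparison was not computed, so calls in the cluster have no background.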
